A study of Gallus gallus with 40 samples.

Results

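The RNA splicing and helicase genes described here are those whose symbol in the probe annotation begins with SF3A, SF3B, SNRP, SRSF, SFRS, HNRNP, HNRP, DDX, DHX, PRPF, LSM followed by a digit, or RBM. They numbered 82 of the 6428 annotated genes and stood on the array as 144 probes. Of these, 51 probes of 43 genes had values on enough arrays to be tested, which is 35.4% of the member probes against 34.7% of all probes. In juvenile broiler chickens of a high growth (HG) line and a low growth (LG) line, divergently selected for body weight, liver RNA was compared at 1, 3, 5, 7, 9 and 11 weeks on a spotted cDNA array with a pair of dyes. Every array set HG liver against LG liver of the same age, and HG carried Alexa Fluor 647 or Alexa Fluor 555 on equal numbers of arrays within each age. All birds were raised under standard broiler conditions, and the labels name no other treatment. The question put to these arrays is which hepatic transcripts separate the lines, and at which ages.

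Introns are removed from pre-mRNA by the spliceosome, which is assembled from small nuclear ribonucleoproteins (snRNPs), the PRPF proteins and RNA helicases of the DEAD box (DDX) and DEAH box (DHX) families. SR proteins (SRSF), heterogeneous nuclear ribonucleoproteins (HNRNP) and many RNA binding motif (RBM) proteins bind the transcript and influence which splice sites are used. Several DDX helicases act instead in ribosome assembly or translation, and liver cells, which secrete large amounts of plasma protein, use all of these systems.

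There were 12 arrays at 1 week, 12 at 3 weeks and 4 at each later age. Replicates 3 and 4 at 3 weeks held nearly the same values (r = 0.99988 over 9493 spots, where the next highest pair of arrays had 0.805) although their labels give opposite dye orientations, so both were left out and 38 arrays were fitted. Between 7291 and 13434 of 19200 spots had a value on an array. Member probes had a value more often than probes at large at the later ages: 69.4% to 84.0% of them had one on an array at 11 weeks, against 55.4% to 70.5% of all probes, and at 1 week the ranges were 41.7% to 75.7% and 38.5% to 58.3%. At 1 and 3 weeks some birds were used on more than 1 array, and the labels do not say which, so arrays were the units there. The values are ratios, so no level of a gene is known and genes cannot be ranked by abundance, and fewer cells of a type and less RNA per cell cannot be told apart. Of the 11 hepatocyte markers looked up, 10 had a tested probe, which is the only check of the tissue that ratios allow. 

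Values below are log2 line differences, obtained by turning each deposited ratio by the dye that HG carried. A positive value means more transcript in HG liver if the deposited ratio is 647 over 555. That reading is the likely one, as 647 is called red and 555 green in the design text, but with 555 as the numerator a positive value means more in LG liver. The direction is not settled, because the numerator is not given in the sources used here. Some pairs of arrays with equal orientation also ran in opposite directions over all probes. The lowest r was -0.308 between arrays of different ages and -0.067 within an age. Such pairs do not show which dye is the numerator. With the other numerator every value below changes sign and every count of calls stays, with positive and negative exchanged. Of the 38 arrays, 31 correlated positively with the mean line difference of the other arrays over all ages, and 21 with that of the other arrays of their own age. With the mean over all ages, a negative correlation beyond 0.1 in size was found for 3 arrays, which are here said to run against their labels. These were replicate 4 of the 5-week group (r = -0.381) and, in the 3-week group, replicate 1 (r = -0.196) and replicate 2 (r = -0.166). The choice depends on the reference. Against their own age, replicates 6 (-0.1657) and 8 (-0.2134) at 3 weeks, 3 at 5 weeks (-0.2025) and 1 at 7 weeks (-0.1035) also passed that bound. Replicate 4 at 5 weeks (-0.5881) and replicate 1 at 3 weeks (-0.1362) did so too, but replicate 2 at 3 weeks had -0.0087. It is not known either whether the authors set the ratios to HG against LG before deposit, and the counts under that reading are given after the family results. On this scale, the only markers of other cells to pass the test at any age did so at 7 weeks: HBBA, a globin of erythroid cells (0.86, limma adjusted p = 1.632e-05), and TOP2A, a topoisomerase of dividing cells (1.07, adjusted p = 7.81e-05). The other of the 2 erythroid probes tested had -0.013 at 7 weeks. Of the 8 probes tested for dividing cells, 4 were positive at that age, with a median of 0.0045. Hepatocyte markers were called on both sides at 7 weeks. FGA, FGB and TF were positive, and TTR had -1.63 and -1.06 on its 2 probes. No probe of the leukocyte list (6 tested) or the matrix and vessel list (10 tested) passed at any age. Their part in the members' values was not tested.

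No splicing or helicase gene passed the test at any age. With limma and Benjamini-Hochberg adjustment over all 6432 probes tested, 0 of 51 member probes had an adjusted p under 0.05 at 1 week, where 0.0155% of all probes did. The count was also 0 of 51 at the later ages, beside 0%, 0.777%, 2.91%, 0.84% and 0.389% of all probes at 3, 5, 7, 9 and 11 weeks. It was 0 of 51 for the mean over ages (4.31%), for late minus early (1.15%), for the F test that the 6 line differences are equal (1.59%) and for the joint F test of all 6 (2.85%). At these background shares, 0 of 51 does not set the members apart from other genes. At an unadjusted p under 0.05, limma gave 0, 0, 6, 6, 5 and 0 member probes at the 6 ages in order, where all probes gave 1.34%, 0.42%, 8.85%, 11.7%, 11.4% and 4.17%. Positive among them were 5 at 5 weeks (4.79% of all probes had such a p and a positive value), 5 at 7 weeks (6.11%) and 3 at 9 weeks (7.04%). For the mean over ages 4 members had such a p (14.8%), all positive (7.38%), and for the joint F test 2 did (8.83%). Fits of each age alone called 0 member probes as well, where they called 0.0622%, 0.0155%, 0%, 0.389%, 0.0311% and 0.0777% of all probes. In these separate fits 2, 2, 2, 1, 7 and 1 member probes had an unadjusted p under 0.05, beside 4.87%, 2.69%, 2.46%, 3.84%, 16.9% and 11.9% of all probes.

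The precision of these differences was limited by the number of arrays, and the 95% intervals show which sizes the data leave possible under the fit. At 1 and 3 weeks the fit took arrays that share birds as independent, and the intervals there do not allow for that. The whole interval lay within 1.5-fold either way for 51, 50, 43, 45, 46 and 49 of the 51 member probes at 1, 3, 5, 7, 9 and 11 weeks. For all probes the shares were 98.8%, 99%, 88.1%, 86.9%, 86.7% and 91.5%. For the mean over ages it lay within 1.5-fold for all 51. Differences beyond 2-fold fell within the interval of only 1 probe at 5 weeks (HNRNPH3) and 1 at 7 weeks (a probe of PRPF8). The intervals rest on a spread shared by all ages, with a median residual SD of 0.246 for the members. Taken from one age alone, the members' median SD was 0.315 at 5 weeks and 0.368 at 7 weeks, so the intervals at those ages are too narrow. The arrays of 1, 3, 9 and 11 weeks alone gave median SDs of 0.143, 0.112, 0.143 and 0.0972. These lie below the shared spread, which makes the tests at those ages less likely to call a probe. The fits of an age alone also take a dye effect of their own, while the shared spread comes from 1 dye effect for all ages. Differences of the dye effect between ages thus add to the shared spread and not to these SDs. How much of the gap they make up was not tested. At 1 and 3 weeks 1.34% and 0.42% of all probes had an unadjusted p under 0.05 (limma), against 4.87% and 2.69% in the separate fits.

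**Figure D1:**
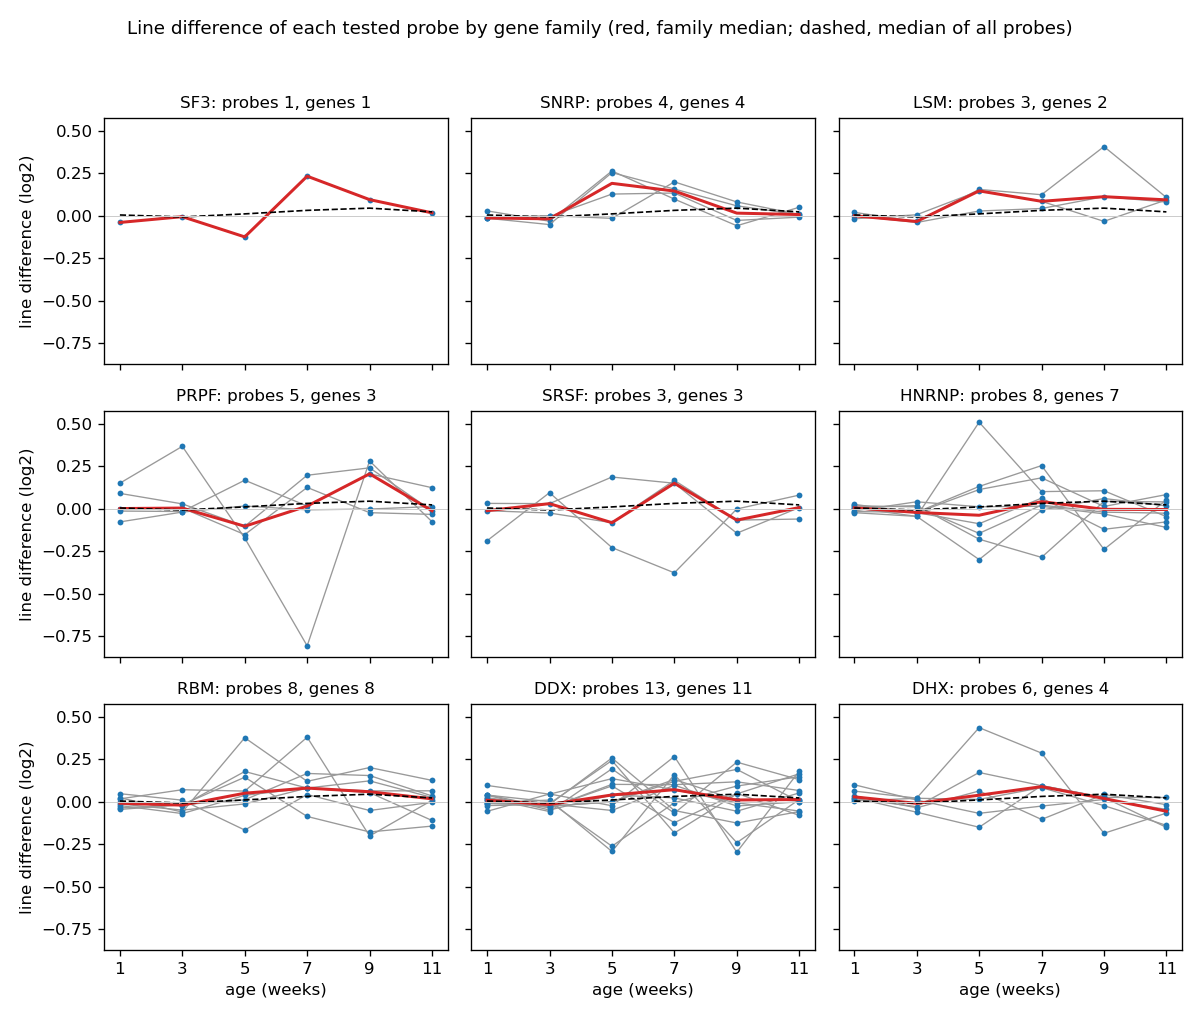
Line difference (log2, vertical axis) of every tested probe at each age in weeks (horizontal axis), with 1 panel per gene family; grey lines join the ages of a probe, red is the family median and the dashed line is the median of all tested probes. Most points lie near 0 at 1 and 3 weeks and spread out at 5 to 9 weeks, and no point passed the adjusted test.

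The members' median difference stayed close to that of all probes at every age. From 1 to 11 weeks, in order, the members had medians of 0.0056, -0.017, 0.028, 0.085, 0.014 and 0.0093. All probes had medians of 0.0049, -0.0067, 0.011, 0.032, 0.045 and 0.023. At 7 weeks 38 of 51 member probes were positive (74.5%), against 60.2% of all probes. This is a description and has no test. The count was 33, 28, 31 and 37 of 51 without replicate 1, 2, 3 or 4 of that age. Without replicate 2 the median of all probes also fell, from 0.032 to 0.0080. The members' median absolute difference at the 6 ages in order was 0.022, 0.025, 0.14, 0.10, 0.065 and 0.053, highest at 5 weeks. All probes had 0.027, 0.024, 0.090, 0.091, 0.11 and 0.064. By range the members were wider at 7 weeks (-0.81 to 0.38) than at 5 weeks (-0.30 to 0.51). The members' median SE was 0.071 at 1 week, 0.077 at 3 weeks and 0.12 at each later age, where there were fewer arrays.

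Among the snRNP proteins, 4 of 5 genes were tested and 0 passed. SNRPD3 and SNRPE belong to the Sm ring that surrounds the spliceosomal small nuclear RNAs, SNRPA1 is a U2 snRNP protein and SNRPN is a relative of the Sm protein B. All 4 had a positive mean over the ages, from 0.035 to 0.069, where 66.7% of all probes had a positive mean. For this mean, 0 of the 4 had an unadjusted p under 0.05 (limma). SNRPE had 0.25 at 5 weeks (95% interval 0.03 to 0.48, 4 arrays, limma adjusted p = 0.476). SNRPN had 0.20 at 7 weeks (interval 0.04 to 0.36, adjusted p = 0.2343), and its 4 arrays gave -0.0043 in replicate 1, 0.41 in replicate 2, 0.17 in replicate 3 and 0.22 in replicate 4. Of the remaining pair, SNRPD3 had 0.26 at 5 weeks and SNRPA1 had 0.13 at 7 weeks, with intervals that include 0. The only tested gene of the SF3 proteins, which form part of the U2 snRNP at the branch point, was SF3B4, 1 of 5. It had 0.23 at 7 weeks (interval 0.03 to 0.44, adjusted p = 0.3091), and its arrays gave 0.18, 0.12, 0.63 and 0.01 in replicates 1 to 4, all positive and led by replicate 3.

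Of the LSM genes 2 of 3 were tested. LSM4, a subunit of the ring on U6 small nuclear RNA, had 0.15 at 5 weeks (interval -0.14 to 0.43). LSM14A, a protein of cytoplasmic mRNP granules that represses translation, had the largest positive value at 9 weeks, 0.41 on its more variable probe (interval 0.08 to 0.73, adjusted p = 0.3221) and 0.11 on the other. On the more variable probe the arrays at 9 weeks gave 0.47, 0.35, -0.17 and 0.97 in replicates 1 to 4, so replicate 3 stood on the other side of 0. At 11 weeks that probe of LSM14A gave -0.43, 0.73, -0.49 and 0.62, where the signs follow the dye that HG carried, 555 in replicates 1 and 3 and 647 in replicates 2 and 4.

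PRPF8, the large scaffold protein at the heart of the U5 snRNP, had both the largest positive member value at 3 weeks and the largest negative one at 7 weeks, on the more variable of its 2 probes. At 3 weeks its 10 arrays ran from -0.08 to 1.14 with a median of 0.26, and 7 of them were positive. At 5 weeks they gave -0.25, -0.75, -1.63 and 1.94 in replicates 1 to 4, so replicate 4 lay far on the other side. At 7 weeks they gave 0.31, -1.85, -1.20 and -0.49. The fitted difference at 7 weeks was -0.81 (interval -1.44 to -0.18, adjusted p = 0.2086). The second probe of PRPF8 had 0.13 at that age (interval -0.06 to 0.32), with arrays at 0.29, 0.22, 0.35 and -0.36, so the 2 probes disagreed in sign and the value of the gene at 7 weeks is uncertain. The probes also differed in residual SD, 0.658 against 0.181. At 9 weeks the first probe gave -0.06, 0.75, 0.12 and 0.32, and at 11 weeks -0.13, 0.00, -0.36 and 0.18, on both sides of 0.

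PRPF6, which bridges the parts of the U4/U6.U5 tri-snRNP, had probes of opposite sign at all 6 ages, for example 0.24 and -0.0011 at 9 weeks. PRPF18, a factor of the second catalytic step, was positive on all 4 arrays at 9 weeks, with 0.27, 0.01, 0.08 and 0.46 in replicates 1 to 4. Its fitted difference there was 0.21 (interval 0.01 to 0.40, adjusted p = 0.4234). The 3 tested PRPF genes were among 7, and the other 4 had values on too few arrays.

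Of the SR proteins 3 of 8 genes were tested. SRSF3, the smallest SR protein, had the largest negative member value at 1 week, -0.19 (interval -0.48 to 0.10), and -0.38 at 7 weeks (interval -0.86 to 0.11). Its arrays at 7 weeks gave 0.38, -1.17, -0.88 and 0.16, with replicates on both sides of 0. SRSF11 had 0.17 at 7 weeks and SRSF5A 0.19 at 5 weeks, with intervals of -0.02 to 0.35 and -0.07 to 0.44. The 3 genes had no common sign at 1, 3, 5, 7 or 11 weeks, and all were below 0 at 9 weeks, from -0.14 to -0.00088.

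Of the hnRNP genes 7 of 11 were tested, on 8 probes. HNRNPH3, which binds G-rich RNA, had the largest positive member value at 5 weeks, 0.51, but its interval ran from -0.0019 to 1.02. Its arrays gave -0.14, 1.21, -0.60 and 1.58 in replicates 1 to 4, so both arrays with HG in 647 (replicates 1 and 3) were negative and both with HG in 555 were positive. HNRNPA1, an abundant splicing repressor, had the third largest negative value at 7 weeks, -0.29 (interval -0.58 to 0.01). HNRNPA2B1, its relative, had -0.30 at 5 weeks on 1 probe (interval -0.64 to 0.04) and -0.14 on the other. HNRNPM, which regulates alternative exons, had 0.18 at 7 weeks (interval -0.07 to 0.43). HNRNPDL and HNRNPH1 stayed between -0.12 and 0.06 at all ages.

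HNRNPKL, a gene on chromosome W in the RefSeq table of assembly GRCg7b, had 0.25 at 7 weeks (interval 0.03 to 0.48, adjusted p = 0.3077) and -0.24 at 9 weeks (interval -0.46 to -0.01, adjusted p = 0.4194). At 1 week its 12 arrays ran from -0.23 to 0.17 with a median of -0.0086, and at 3 weeks its 10 arrays ran from -0.32 to 0.27. At 5 weeks HNRNPKL gave 0.45, 0.25, -0.07 and -0.10 in replicates 1 to 4, at 7 weeks -0.02, -0.18, 0.72 and 0.50, at 9 weeks -0.21, -0.35, 0.02 and -0.42, and at 11 weeks 0.15, -0.23, 0.02 and 0.27. No age had all arrays on one side. Chromosome W is carried by hens, the labels give no sex of the birds, and the part of sex was not tested; a cDNA probe may also bind transcripts of the related gene HNRNPK.

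The RBM proteins, which carry RNA recognition motifs, gave 8 tested genes of 17 and 4 of the 10 members with the smallest joint F p. RBMXL3, a relative of the splicing regulator RBMX, had the smallest joint F p of all members (limma adjusted p = 0.398). At 1 week its 12 arrays ran from -0.27 to 0.20 with a median of 0.06, and at 3 weeks its 10 arrays ran from -0.26 to 0.09 with a median of -0.02. At 5 weeks RBMXL3 gave 0.24, 0.46, 0.75 and 0.07 in replicates 1 to 4, all positive. At 7 weeks it gave 0.76, 0.28, -0.26 and -0.30, at 9 weeks 0.53, -0.14, 0.28 and 0.14, and at 11 weeks 0.01, -0.02, 0.34 and 0.18, each with at least 1 array below 0. The fitted difference was 0.38 at 5 weeks (interval 0.14 to 0.61, adjusted p = 0.17). Its mean over the ages was 0.13 (interval 0.05 to 0.22, adjusted p = 0.07168), the smallest adjusted p of any member in any comparison of the 38-array fit.

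RBM12B had values of 0.11, 0.09, 0.39 and 0.08 at 7 weeks and 0.17, 0.16, 0.18 and 0.11 at 9 weeks in replicates 1 to 4. All 8 arrays of these ages were positive, and at 7 weeks replicate 3 stood well above the rest. At 5 weeks RBM12B gave 0.10, -0.09, 0.14 and -0.11 and at 11 weeks 0.13, 0.04, -0.04 and 0.00, around 0. The signs at 5 weeks followed the dye that HG carried. At 1 week its arrays ran from -0.19 to 0.19 and at 3 weeks from -0.16 to 0.15. The fitted differences for RBM12B were 0.17 at 7 weeks (interval 0.04 to 0.30, adjusted p = 0.1954) and 0.15 at 9 weeks (interval 0.03 to 0.28, adjusted p = 0.3463). Its late minus early difference was 0.12 (interval 0.04 to 0.21, adjusted p = 0.2349). It had the lowest residual SD of the members, 0.106.

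RBM23, a relative of the splicing coactivator RBM39, had the largest positive member value at 7 weeks, 0.38 (interval 0.12 to 0.64, adjusted p = 0.1223). The arrays gave 0.13, -0.11, 1.26 and 0.24 in replicates 1 to 4, so the value rests largely on replicate 3, and it was 0.08 without that array. At 9 weeks RBM23 was negative on all 4 arrays, with -0.32, -0.29, -0.01 and -0.18. At 3 weeks all 8 arrays with a value were positive, from 0.02 to 0.17 with a median of 0.05. At 5 weeks its arrays gave 0.06, 0.33, 0.17 and -0.30, and at 11 weeks 0.28, -0.25, 0.36 and -0.36, on both sides of 0. The signs at 11 weeks followed the dye that HG carried.

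RBM3, a cold-inducible protein, was negative on all 4 arrays at 7 weeks, with -0.24, -0.06, -0.01 and -0.04, and on all 4 at 9 weeks, with -0.09, -0.13, -0.26 and -0.23. Its fitted difference at 9 weeks was -0.18 (interval -0.35 to -0.0028, adjusted p = 0.4341). At 5 weeks RBM3 gave -0.16, 0.58, -0.02 and 0.17, with signs that followed the dye of HG, and at 11 weeks -0.40, 0.05, -0.01 and -0.22. At 1 week its arrays ran from -0.27 to 0.28 and at 3 weeks from -0.19 to 0.11. RBM24, RBM25, RBM38 and RBMXL1 had no value beyond 0.18 in size at any age.

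**Figure D2:**
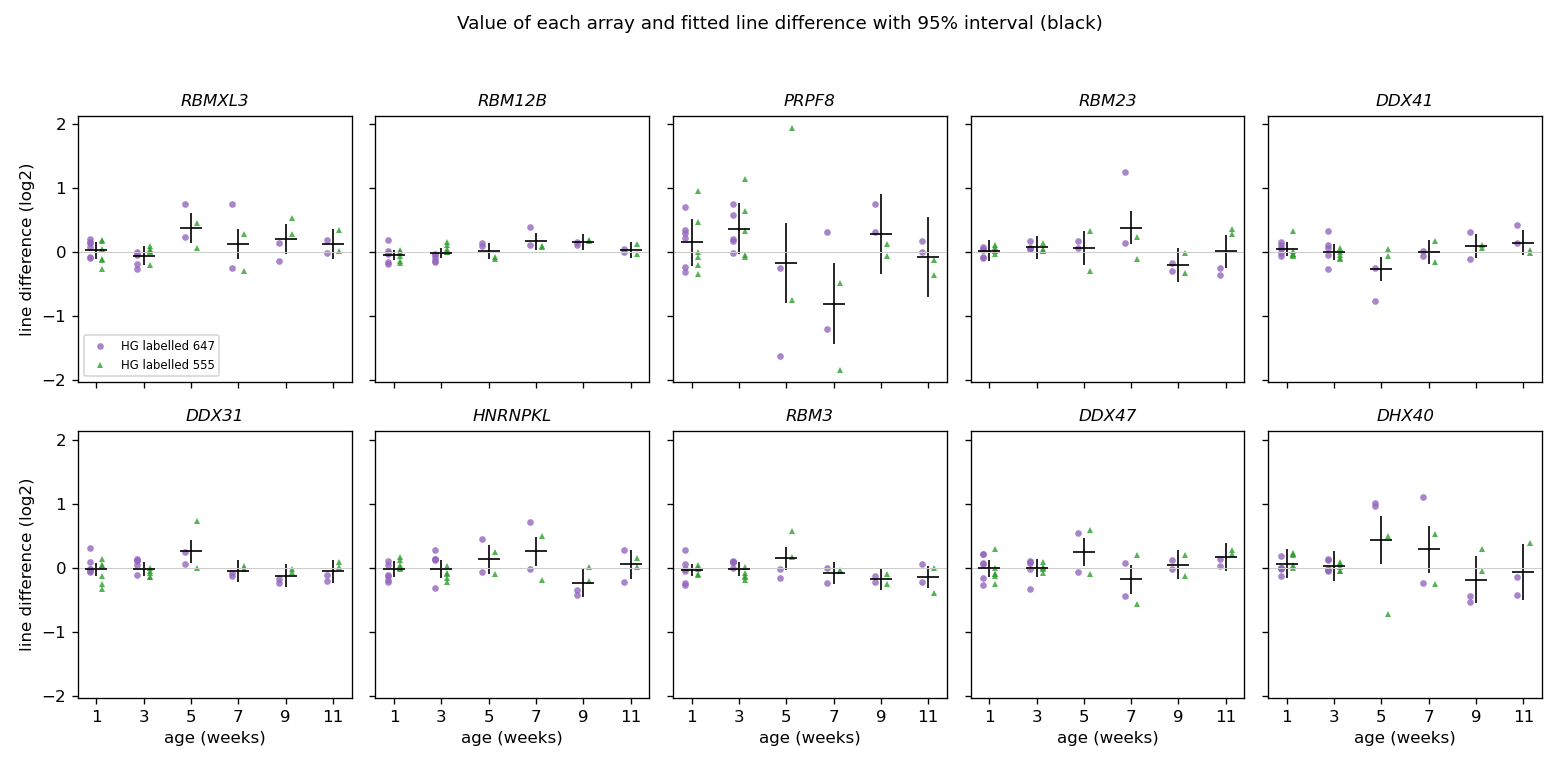
Log2 line difference on every array (points; circles, HG labelled 647; triangles, HG labelled 555) by age in weeks for the 10 members with the smallest joint F p, with the fitted difference and its 95% interval in black. For RBM12B the points at 9 weeks lie close together between 0.11 and 0.18, while the PRPF8 probe runs from -1.63 to 1.94 at 5 weeks.

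Of the DEAD box genes 11 of 22 were tested, on 13 probes, and 3 of them (DDX31, DDX41 and DDX47) were among the 10 members with the smallest joint F p. DDX31, a nucleolar helicase of ribosome assembly, had 0.26 at 5 weeks (interval 0.08 to 0.44, adjusted p = 0.2328). Its arrays there gave 0.05, 0.73, 0.25 and -0.01 in replicates 1 to 4, led by replicate 2. At 7 weeks DDX31 gave -0.13, 0.03, -0.08 and -0.02, at 9 weeks -0.01, -0.24, -0.07 and -0.17, all negative, and at 11 weeks 0.01, -0.11, 0.09 and -0.21. The signs at 11 weeks followed the dye that HG carried. Its arrays ran from -0.33 to 0.30 at 1 week and from -0.15 to 0.13 at 3 weeks.

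DDX41, a helicase tied to splicing and to sensing of cytosolic DNA, had -0.26 at 5 weeks on the less variable of its probes (interval -0.45 to -0.07, adjusted p = 0.2868). The arrays gave -0.77, -0.07, -0.25 and 0.05, led by replicate 1, and the other probe of DDX41 had -0.00065. At 7 weeks the first probe gave -0.06, 0.18, 0.01 and -0.15, at 9 weeks 0.10, -0.12, 0.07 and 0.31, and at 11 weeks -0.02, 0.43, 0.04 and 0.14. It ran from -0.07 to 0.33 at 1 week and from -0.26 to 0.32 at 3 weeks, so no age kept all arrays on one side.

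DDX47, another helicase of ribosome assembly, had 0.24 at 5 weeks (interval 0.02 to 0.47, adjusted p = 0.5032), where its arrays gave 0.55, 0.59, -0.07 and -0.10. At 7 weeks they gave -0.45, -0.56, 0.07 and 0.20 and at 9 weeks -0.13, -0.02, 0.20 and 0.13, with replicates 1 and 2 apart from replicates 3 and 4 each time. At 11 weeks all 4 arrays of DDX47 were positive, with 0.22, 0.14, 0.28 and 0.02, and its fitted difference was 0.17 (adjusted p = 0.9997). At 1 week the arrays ran from -0.27 to 0.30 and at 3 weeks from -0.34 to 0.11.

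DDX1, which takes part in the ligation of tRNA, had 0.23 at 9 weeks on 1 probe, positive on 4 of 4 arrays (interval -0.02 to 0.49), and 0.12 on the other. DDX3X, a helicase of translation initiation, had -0.29 at 5 weeks (interval -0.63 to 0.04) and -0.24 at 9 weeks (interval -0.58 to 0.10). DDX46, the counterpart of yeast Prp5 that acts on the U2 snRNP, had the widest spread of the family, a residual SD of 0.650. At 5 weeks its arrays gave -0.29, -0.69, -0.90 and 1.79, and at 9 weeks -0.34, 0.50, -0.05 and -1.29. Its values of 0.27 at 7 weeks and -0.30 at 9 weeks therefore had intervals of -0.36 to 0.89 and -0.92 to 0.33. DDX11, DDX17, DDX18, DDX21 and DDX51 stayed between -0.12 and 0.14 at all ages.

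All 4 DEAH box genes were tested, on 6 probes. DHX40 had the largest values of the family, 0.44 at 5 weeks (interval 0.07 to 0.81, adjusted p = 0.4261) and 0.29 at 7 weeks (interval -0.08 to 0.66). At 5 weeks its arrays gave 1.01, 0.50, 0.96 and -0.73 in replicates 1 to 4, with replicate 4 on the opposite side. At 7 weeks DHX40 gave -0.24, -0.25, 1.11 and 0.53, at 9 weeks -0.05, -0.44, 0.29 and -0.54, and at 11 weeks, where replicate 1 had no value, -0.43, 0.38 and -0.15. The signs at 11 weeks followed the dye that HG carried. At 1 week 11 arrays ran from -0.13 to 0.23 and at 3 weeks 10 arrays from -0.05 to 0.13. DHX36, which unwinds G-quadruplexes, had 0.17 at 5 weeks (interval -0.03 to 0.38). DHX38, the counterpart of yeast Prp16 in the second catalytic step, and DHX30, which acts on mitochondrial RNA, each had 2 probes with no difference beyond 0.15 in size.

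Probes of the same gene gave a check of how far a single value can be taken. For the 8 genes with 2 tested probes (DDX1, DDX41, DHX30, DHX38, HNRNPA2B1, LSM14A, PRPF6 and PRPF8), the signs were the same in 27 of 48 comparisons over the 6 ages. At 7 weeks they were the same for 1 of 8 genes, LSM14A. The median absolute gap between 2 probes, by age in order, was 0.030, 0.026, 0.12, 0.15, 0.11 and 0.054. At every age but 5 weeks these gaps were larger than the median absolute difference of the members themselves, and 35 of the 43 tested genes rest on a single probe.

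Other genes of splicing and RNA export were looked up as well. From a list of 109 genes outside the families above, chosen with earlier results of these data known, 33 genes had a tested probe and 0 of their 40 probes passed at any age, for the mean over ages or for late minus early (limma), beside the shares of all probes given above (0% to 4.31%). At 1 week 30 of the 40 probes were positive, with a median of 0.012, where 55.3% of all probes were positive. At 3 weeks 13 were, with a median of -0.017, where 42% of all probes were. SUGP1, a partner of the branch point machinery, had 0.21 at 9 weeks (adjusted p = 0.2032). SNW1, a spliceosome component also known as SKIP, had 0.26 at 9 weeks (adjusted p = 0.2408). AQR, an intron binding helicase, had 0.23 at that age (adjusted p = 0.4065). THOC5, of the complex that couples transcription to mRNA export, had -0.17 at 5 weeks (adjusted p = 0.5604). These are picked values. At 9 weeks the 40 probes ran from -0.28 to 0.27 and 23 were positive, where 61.6% of all probes were. The lowest value at 11 weeks was -0.35.

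The count at 5 weeks depended on a single array. Without replicate 4, the array that ran against its label, 11 of 51 member probes had a limma adjusted p under 0.05 at 5 weeks, 7 of them positive, and 14.7% of all probes did. This alternative compares 3 arrays, of which 2 had HG in 647, and whether the array was mislabelled or differed for another reason was not tested. The array was picked out by its disagreement with the other arrays in these same values. Removing it lowers the spread by selection, so the adjusted p-values of this fit describe the dependence on 1 array and are not tests of the genes. DHX40 had 0.84 (SE 0.16, adjusted p = 0.0009227), RBMXL3 0.48 (SE 0.13, adjusted p = 0.01213) and SNRPD3 0.44 (SE 0.15, adjusted p = 0.04765) without it. On the negative side stood the more variable PRPF8 probe at -0.90 (SE 0.27, adjusted p = 0.02113), DDX3X at -0.53 (SE 0.18, adjusted p = 0.04006), DHX30 at -0.44 (SE 0.15, adjusted p = 0.04131) and DDX41 at -0.37 (SE 0.10, adjusted p = 0.0149). The remaining probes called were those of HNRNPM (0.38), DDX47 (0.36), DDX31 (0.35) and SNRPA1 (0.24). The second probes of PRPF8 (-0.03), DDX41 (0.19) and DHX30 (0.13) were not called, and those of DDX41 and DHX30 had the opposite sign. Without that array HNRNPH3 had 0.14 in place of 0.51. In the same fit only the more variable PRPF8 probe was called at 7 weeks (4.14% of all probes) and for late minus early (3.08%). HNRNPM and RBMXL3 were called for the mean over ages (9.84%), and the same PRPF8 probe and DHX40 in the F test that the ages are equal (4.2%). At these shares, counts of 1 or 2 of 51 do not set the members apart from other genes.

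**Figure D3:**
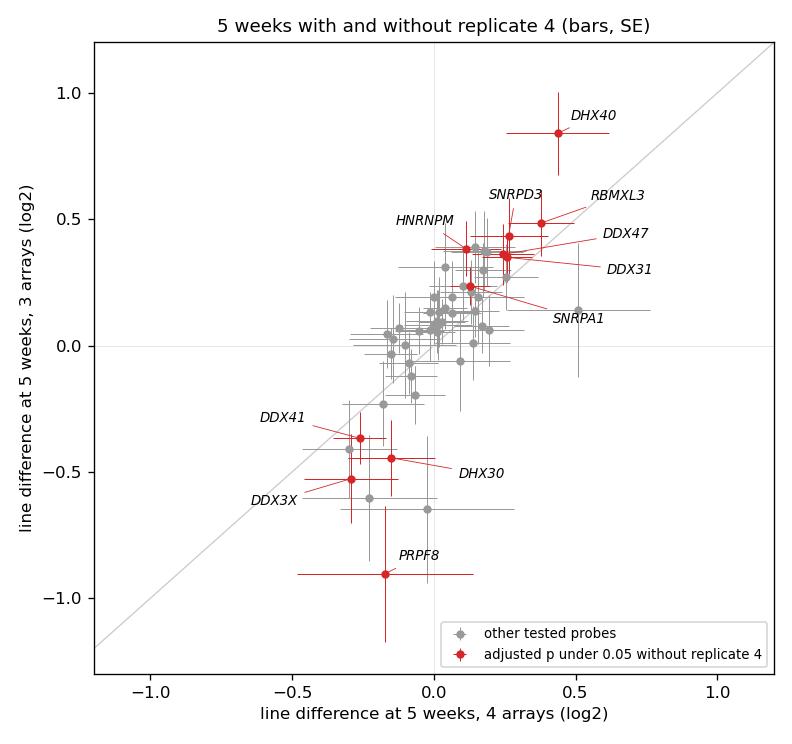
Line difference at 5 weeks (log2) of each tested member probe from 4 arrays (horizontal axis) and from 3 arrays without replicate 4 (vertical axis), with SE bars; red marks the 11 probes called without that array and the grey diagonal marks equal values. DHX40 moves from 0.44 to 0.84 and the PRPF8 probe from -0.17 to -0.90. Replicate 4 was picked out from these same values, so the red marks are a description and not a test.

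The calls also depended on whether the deposited ratios are read as dye ratios or as ratios already set to HG against LG. In the second reading no ratio is turned, and limma called 14, 9, 27, 16, 1 and 6 of 51 member probes at 1, 3, 5, 7, 9 and 11 weeks. All probes gave 19.4%, 9.73%, 48%, 35.3%, 9.24% and 16.1%, so the members' counts went with the whole array. For the mean over ages 23 member probes were called (47% of all), for late minus early 7 (19.9%) and for unequal ages 27 (52.2%). DDX17, a coregulator of transcription and splicing, then had a mean of 0.27 (adjusted p = 3.744e-07), RBMXL3 0.25 (adjusted p = 2.622e-05) and HNRNPDL 0.22 (adjusted p = 6.3e-06). On the negative side a DHX30 probe had -0.19 (adjusted p = 1.732e-05) and PRPF18 -0.18 (adjusted p = 6.599e-06). RBM3, which had -0.05 as the mean of turned values, had -0.16 (adjusted p = 3.221e-05). If the ratios are indeed HG against LG, the dye effect cancels in these means, since HG carried each dye on equal numbers of the fitted arrays at every age. If they are dye ratios, the same means hold each probe's dye effect and the line difference cancels, and the labels do not settle which of the readings holds.

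**Figure D4:**
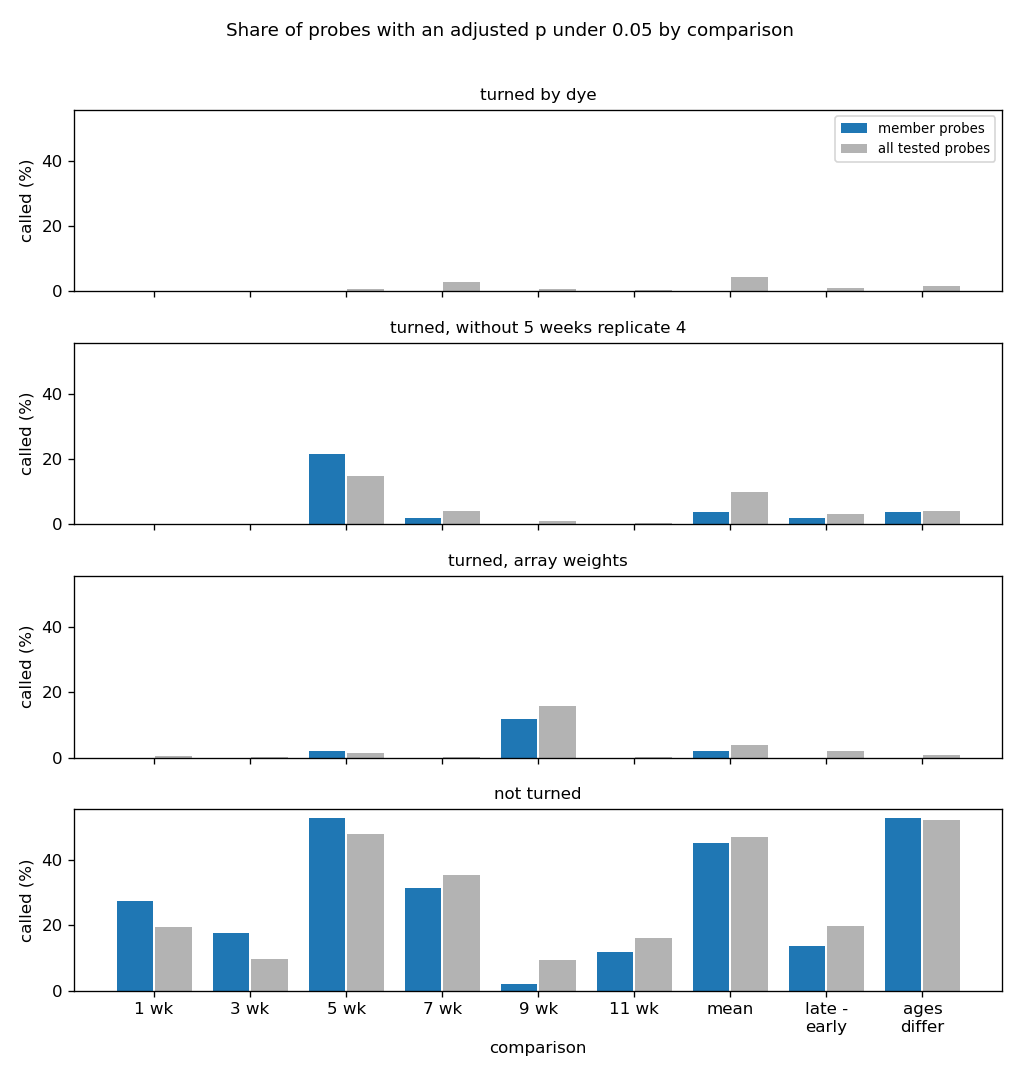
Share of probes (%) with a limma adjusted p under 0.05 in each comparison (6 ages, mean over ages, late minus early, and the F test that ages differ) for the 51 member probes (blue) and all 6432 tested probes (grey), with 1 panel for each way of reading or fitting the arrays. Blue is at 0 throughout the top panel, reaches 11 of 51 at 5 weeks without replicate 4, and stands beside grey bars of up to 52.2% when ratios are not turned.

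The side of 1 on which the deposited ratio lay, before any turning, was the same on every array for 28 of 51 member probes at 11 weeks, where 44.7% of all probes did this, and for 22 of 51 at 5 weeks (39.6%). The counts at 1, 3, 7 and 9 weeks were 5 (10.4%), 8 (15.8%), 8 (22.9%) and 12 (30.2%). For comparison, the fitted dye effect was taken off and the values were turned. The sign was then the same on every array for 0, 1, 1, 4, 7 and 2 of 51 at the 6 ages in order. The shares of all probes were 0.109%, 0.0777%, 5.49%, 7.63%, 19.2% and 9.97%. At each of the 6 ages more member probes kept their side before both steps than after them. The effect of turning alone was not separated from that of taking off the dye effect.

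With weights that give less to arrays far from the others, 6 of 51 member probes were called at 9 weeks, 5 of them positive, where 15.9% of all probes were called. They were RBMXL3 (0.32, limma adjusted p = 0.01663), SF3B4 (0.22, adjusted p = 0.02585), DDX3X (-0.47, adjusted p = 0.02706), PRPF18 (0.20, adjusted p = 0.03699), a PRPF6 probe (0.45, adjusted p = 0.03947) and DDX17 (0.34, adjusted p = 0.04725). DDX17 had -0.05 without weights, so its sign changed. With a dye effect for each age and round in place of 1 for all ages, RBM23, RBM12B and SF3B4 were called at 7 weeks (6.76% of all probes), HNRNPH3 at 5 weeks (2.44%) and LSM14A at 9 weeks (5.12%). The values of these 5 probes are those given above, since only their errors changed.

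RBMXL3 was the member called under the most alternatives with turned ratios for the mean over ages, at 0.13 to 0.16 in those fits. It was not called in the fit of all 38 arrays (limma adjusted p = 0.07168). These fits share most of their arrays, and some leave out arrays picked from these same values, so they are not separate tests of the gene. Of all probes, 8.74% were called for the mean with a dye effect per age and round. The share was 9.84% without replicate 4 at 5 weeks and 10.5% without the arrays that ran against their label. For late minus early, 5 unadjusted p-values under 0.05 among 6 belonged to positive values: RBM12B (0.12), RBMXL3 (0.22), PRPF18 (0.14), RBM24 (0.11) and SNRPE (0.15). The negative one was the more variable PRPF8 probe, -0.45 (interval -0.87 to -0.04, adjusted p = 0.5226). Over all probes 8.58% had such a p and 4.24% had one with a positive value, so 6 of 51 and 5 of 51 are read against those shares only. The F test that a gene's 6 line differences are equal gave 1 member with an unadjusted p under 0.05, RBM12B (adjusted p = 0.5706), against 7.12% of all probes.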

How the data were processed

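Column-purified total RNA was copied into cDNA and labelled indirectly, per the labels' protocols, with Alexa Fluor 555 or 647. The deposited table holds a linear ratio per spot and array made by the authors; the scanner, background correction, normalization, filter and numerator are not given in the sources used here. Array medians of the deposited ratio lay between 0.966 and 1.015, so no further normalization was applied, and any compression of ratios in the authors' values stays. The log2 of the ratio was taken, spots of 1 accession were averaged to 18547 probes, and testing was limited to probes with values on 75% or more of the arrays at each age. Symbols came from the platform annotation, and all 157 member spots had the same symbol in the RefSeq table of GRCg7b.

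limma 3.58.1 (lmFit, then eBayes; R 4.3.3) fitted a line effect per age entered as +1 or -1 by the dye of HG, together with 1 dye effect for all ages. Tests were two-sided with Benjamini-Hochberg adjustment over 6432 probes at 0.05. The planned design held all 40 arrays; the 2 near-identical arrays at 3 weeks were left out after the data were seen, with the fits that keep them as added alternatives. Array values are log2 ratios from which the fitted dye effect was taken off before turning. Late minus early is the mean of 5 to 11 weeks minus the mean of 1 and 3 weeks. The script was tested on simulated data.

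The members and lists were chosen with earlier results of these data known. Named were, per family, up to 4 tested genes with the smallest joint F p, at each age the 3 largest positive and negative values, and genes with several probes; array values are given for the 10 smallest joint F p, and others were named after their values were seen. Alternatives covered the filter, scaling, weights, dye terms, rounds, the turning of ratios, and each left-out array of the ages with 4 arrays. Genome coordinates were not used here.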

Additional observations from a re-analysis of the deposited data

Results flagged for a closer look

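In 49 groups of 4 to 10 arrays checked for an array far from the others, about 1 in 20 would be picked by chance, and 2 were found among the members shown by array. RBM12B at 7 weeks had 0.39 (log2) in replicate 3, while the other 3 arrays lay between 0.08 and 0.11. DDX47 at 3 weeks had -0.34 in replicate 2, one of the arrays that ran against their labelled orientation, while the other 9 arrays lay between -0.09 and 0.11.

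RBM23 was positive on all 8 arrays with a value at 3 weeks (0.07 fitted) and negative on all 4 arrays at 9 weeks (-0.20 fitted), a difference of 0.27. This case came from a search of every pair of ages in the 10 members with the smallest joint F p. Of all probes, 0.0777% kept the same sign on every array at 3 weeks and 19.2% did at 9 weeks. The share of all probes with such a reversal was not counted. The difference between these 2 ages was not tested by itself, and the F test that the 6 ages are equal did not pass (limma adjusted p = 0.8635).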

How the results depend on the processing

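Among the 33 alternatives to the fit, the one with the other numerator keeps every count by design. Leaving out 1 array bears mainly on the values of its own age. With these included, 23 of the 33 called 0 member probes in every comparison they gave, and 261 of 294 comparisons kept their count. The exceptions follow, as member probes called of 51 at an adjusted p under 0.05 (limma). The share of all probes is in brackets where not given above, except for fits that left out 1 array. With ratios not turned, the counts were 14, 9, 27, 16, 1 and 6 at the ages in order, 23 for the mean, 7 for late minus early and 27 for unequal ages. With array weights they were 1 at 5 weeks (1.29%), 6 at 9 weeks and 1 for the mean (3.76%). With a dye effect per age and round they were 1 at 5 weeks, 3 at 7 weeks, 1 at 9 weeks, 3 for the mean (8.74%) and 1 for late minus early (2.38%). Without the 3 arrays that ran against their label they were 11 at 5 weeks (14.8%), 1 at 7 weeks (3.98%), 2 for the mean (10.5%), 1 for late minus early (2.61%) and 2 for unequal ages (3.84%). Those 3 arrays were picked out from these same values, so these counts are a description only. Leaving out 1 array of 5 to 11 weeks gave 0 to 11 at 5 weeks, 0 to 3 at 7 weeks, 0 to 2 for the mean, 0 to 1 for late minus early, 0 to 2 for unequal ages and 0 elsewhere. Replicate 4 at 5 weeks gave the highest count of these except at 7 weeks, where leaving out replicate 2 called HNRNPA1, HNRNPKL and RBM23. Leaving out replicate 1 of that age called the more variable PRPF8 probe. The shares of all probes without these 7-week arrays are not given here, so their counts are not read as results about the members. The cause of these shifts was not tested. With ratios not turned, 3 named values were called with the opposite sign: PRPF6 at 1 week (0.24, adjusted p = 0.0009907), HNRNPH3 at 5 weeks (-0.54, adjusted p = 0.008835) and SNRPE at 5 weeks (-0.42, adjusted p = 0.0003665). The near-identical arrays at 3 weeks called 0 members whether counted once or both kept.

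The replicate block, with the replicate number as a block, called 0 member probes in every comparison. Arrays of the same number had deviations with a median r of 0.179 (37 of 58 pairs over 0.1), and arrays of other numbers one of -0.00222 (184 of 510 over 0.1). Same-numbered arrays thus deviated together more often, a hint from the data. Between 5 and 7 weeks, and among the other ages, arrays of the same number also had HG in the same dye. The part of the dye in these correlations was not tested. Since not every pair was over 0.1 and the labels name no shared birds, the numbers were not taken to pair the samples. The 4 arrays per later age, their wide spread at 5 and 7 weeks and the unknown turning limit the precision; rounds of hybridisation at 1 and 3 weeks, taken as replicates 1 to 4 and 5 to 12, each called 0.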
